A study of Mus musculus with 36 samples.

Results

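Cholesterol is made from acetyl-CoA, taken up in lipoproteins, moved between membranes, stored as esters and exported, and 33 genes of these routes were followed here in liver and quadriceps muscle of mice after partial hepatectomy (PHx). The genes were named as a list of symbols, and all 33 were found among the 14702 genes of the deposited count table. By role they comprise 8 early mevalonate steps, 11 sterol steps, 4 genes of sterol sensing, 4 of uptake and transport inside the cell, 4 exporters and 2 esterifying enzymes. All mice were male C57BL6/J, 12 to 14 weeks old. The PHx mice had 70% of the liver removed and were sampled at day 1, 3 or 7, with 5 libraries of total RNA per day and tissue. The sham mice underwent surgery with no resection and gave 3 libraries per tissue. Each tissue was sequenced in bulk, so fewer cells of a type and less RNA per cell cannot be told apart. The days are those of the sample titles, since the treatment field of every sample, sham included, reads day 3. The day of the sham samples is not given, nor is it said which liver and which quadriceps came from 1 mouse.

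Cells hold the sterol content of the endoplasmic reticulum steady by feedback. When sterol is scarce, SCAP escorts the precursor of the transcription factor SREBP-2 to the Golgi, where it is cut and released to switch on the genes of synthesis and uptake. When sterol is plentiful, INSIG proteins hold SCAP back, and oxysterols activate the nuclear receptor LXR, which switches on export. Hepatocytes also secrete cholesterol into bile and turn it into bile acids.

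The liver libraries held 12464547 to 28862458 counted reads each, and the quadriceps libraries 15506197 to 29623890. Levels below are CPM, read counts scaled to a fixed library total. Changes are log2 fold changes ± SE from 1 edgeR quasi-likelihood fit per tissue, which also scales by TMM, and a gene "rose" or "fell" where the Benjamini-Hochberg adjusted p over all genes was under 0.05. All 33 members passed the filter on low counts in liver, and 31 did in quadriceps. The exceptions were Abcg5 and Abcg8, which lay between 0 and 0.408 CPM in the 18 quadriceps libraries. The tissue labels matched the markers: hepatocyte markers summed to 58970.0 CPM or more in every liver and muscle fibre markers to 114523 CPM or more in every quadriceps. Some livers also held reads of marker genes of other cell types. Muscle fibre markers summed to 992 and 1616 CPM in day 1 livers 1 and 2 and to 19.01 to 43.9 CPM in day 1 livers 3 to 5, and to 10.3 to 219 CPM in day 3 and day 7 livers, against 530.3 to 993 CPM in sham livers. Cholangiocyte markers reached 382 and 664.5 CPM in day 1 livers 4 and 5, against 9.02 to 13.7 CPM in sham livers. Nearly all of this was Sox9, with 18807 reads over the day 1 livers, where Krt19, Krt7 and Epcam had 113, 141 and 109. Pancreatic islet markers summed to 6.18 to 181 CPM in day 3 livers and 8.97 to 66.4 CPM in day 7 livers, against 0 in sham livers. Adipocyte markers summed to 9.16 to 96.7 CPM in PHx livers, against 171 CPM in sham liver 2 and 5.99 and 7.72 CPM in the other sham livers. In PHx livers nearly all of this was Fabp4. Over the day 1 livers Fabp4, Adipoq and Cfd had 6015, 22 and 116 reads, against 2728, 487 and 887 over the sham livers. The part of islet RNA and of adipocyte marker reads in the liver results was not tested. In quadriceps, islet markers summed to 6.29 to 30.2 CPM in sham and 0.0522 to 47.3 CPM at day 1, and to at most 0.205 CPM at day 3 and 0.0958 CPM at day 7. Hepatocyte markers summed to 1.13 to 2.94 CPM in sham quadriceps, and reached 55.5, 117 and 64.7 CPM at days 1, 3 and 7. The part of these reads in the quadriceps results was not tested.

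The promoters of 4 members are shown because these genes stand for the patterns that follow. Hmgcs1, Idi1 and Sc5d are synthesis genes that fell in day 1 liver, and Insig2 moved against them. The sequences are from RefSeq (GRCm38.p6) and run from 250 bases before the annotated start to 50 after it, on the strand of the gene. Capitals mark CCAAT on either strand (read as ATTGG on the other), the box bound by NF-Y, and in Hmgcs1 also TCACCCCAC, a match to the sterol response element searched as TCACNCCAC on both strands.
Hmgcs1, chr13:119690101-119690400, plus strand: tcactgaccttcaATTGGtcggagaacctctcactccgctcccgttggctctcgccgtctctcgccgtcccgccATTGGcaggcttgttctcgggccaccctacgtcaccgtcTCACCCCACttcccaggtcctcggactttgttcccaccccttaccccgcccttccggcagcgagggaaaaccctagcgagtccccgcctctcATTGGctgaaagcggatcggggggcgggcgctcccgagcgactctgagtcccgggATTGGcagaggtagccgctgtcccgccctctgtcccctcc
Idi1, chr13:8885356-8885655, plus strand: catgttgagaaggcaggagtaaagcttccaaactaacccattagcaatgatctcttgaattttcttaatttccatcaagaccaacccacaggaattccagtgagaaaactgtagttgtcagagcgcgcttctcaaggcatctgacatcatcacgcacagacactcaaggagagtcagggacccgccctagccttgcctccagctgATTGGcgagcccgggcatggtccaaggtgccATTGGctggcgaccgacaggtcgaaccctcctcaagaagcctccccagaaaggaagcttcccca
Sc5d, chr9:42264251-42264550, minus strand: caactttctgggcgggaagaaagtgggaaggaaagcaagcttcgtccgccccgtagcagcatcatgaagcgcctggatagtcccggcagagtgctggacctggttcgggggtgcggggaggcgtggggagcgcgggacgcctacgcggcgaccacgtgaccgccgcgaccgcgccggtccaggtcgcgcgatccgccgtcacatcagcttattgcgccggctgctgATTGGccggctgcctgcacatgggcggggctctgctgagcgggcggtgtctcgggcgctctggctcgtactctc
Insig2, chr1:121332540-121332839, minus strand: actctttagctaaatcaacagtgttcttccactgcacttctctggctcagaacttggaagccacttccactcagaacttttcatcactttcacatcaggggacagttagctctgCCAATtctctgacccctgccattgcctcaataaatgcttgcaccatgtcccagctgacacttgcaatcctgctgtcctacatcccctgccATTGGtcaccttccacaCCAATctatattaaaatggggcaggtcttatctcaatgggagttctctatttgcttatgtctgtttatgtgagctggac
The table of promoters matched 25 of the 33 members. CCAAT was present in 22 of those 25, which is 88% against 41.1% of all 27025 genes with a promoter in the table. Counted by window, 22 of 32 member windows held it, 68.8% against 37.4% of all 32851 windows. TCACNCCAC was found in Hmgcs1 alone, at position -137 from the start, against 1.44% of all genes. CACGTG, the E-box searched as a comparison and not marked here, was in 6 of 25 members, 24% against 8.09% of all genes. Of the 3 Insig2 windows in the table the one shown held CCAAT and the other two did not; Hmgcs1, Idi1 and Sc5d have 1 window each. The marked motifs do not overlap each other in these 4 windows. A match of letters is a description of the sequence and shows no binding.

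**Figure D1:**
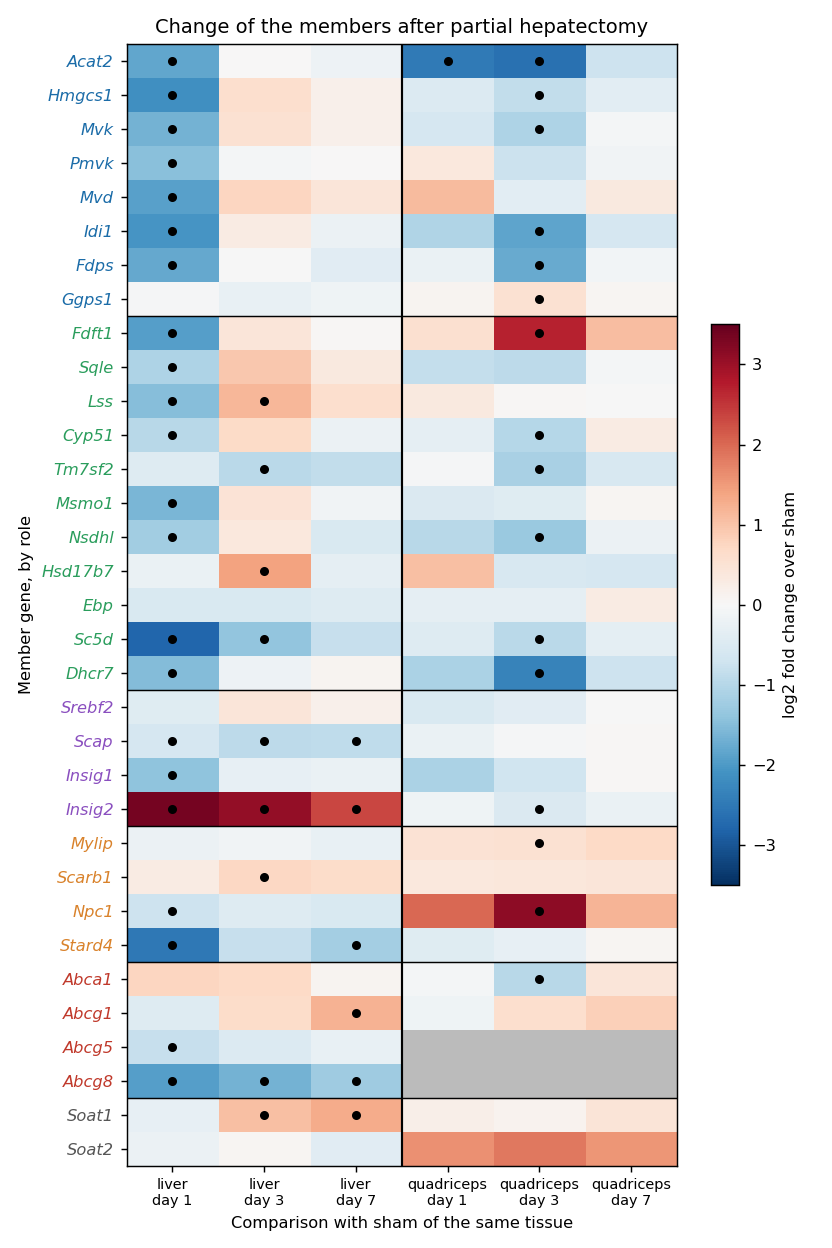
Log2 fold change over sham of each member (rows, ordered and coloured by role, with lines between roles) at days 1, 3 and 7 in liver (3 columns on the left) and quadriceps (3 columns on the right). Black dots mark edgeR adjusted p under 0.05 and grey cells are genes not tested; the liver column of day 1 is blue for 30 of 33 members, and quadriceps has dots mainly at day 3.

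In sham mice most members had a higher share of the reads in liver. Of the 33 members, 31 were higher in sham livers than in sham quadriceps with no overlap between libraries, as were 39.5% of all 14702 genes, and the median ratio of liver to quadriceps was 11.8 against 1.004 over the 14254 genes with reads in both. In sham quadriceps the 9 muscle fibre markers alone took 245310.0 to 304358 CPM. The other two, Ggps1, which makes the geranylgeranyl donor for protein prenylation, and Mylip, the ubiquitin ligase that sends lipoprotein receptors to degradation, were higher in quadriceps, as were 39.3% of all genes. These ratios compare libraries of different tissues scaled to total counts and were given no test. Per kilobase of transcript, Sc5d, which makes the double bond between carbons 5 and 6 of the sterol ring, was the most abundant member in sham liver, at 492 ± 69 CPM per kilobase (SD, n = 3). Hmgcs1, the cytosolic HMG-CoA synthase, followed at 183 ± 48.4 CPM per kilobase and the C4-methyl oxidase Msmo1 at 182 ± 29.6, which do not differ beyond their spread. In sham quadriceps the order was led by Npc1, the lysosomal cholesterol exporter, at 33.3 ± 2.94 CPM per kilobase, with Sc5d next at 19.7 ± 2.61.

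At day 1 most of the listed synthesis genes were lower in the liver. Of the 33 members, 21 fell and 1 rose against sham, while over all 13879 genes 27.7% were called, 16.7% higher and 11.0% lower. Of the 19 synthesis genes in the list, which need not be the whole route, 15 were lower and 0 higher by edgeR or DESeq2. Their median log2 fold change was -1.52, against 0.06 over all genes. At an unadjusted p under 0.05 edgeR had 0 of the 19 higher, against 3334 of all 13879 genes. The 19 genes summed to 1077 ± 319 CPM in day 1 livers and 3716 ± 557 CPM in sham livers (SD, n = 5 and 3). The highest day 1 liver reached 1424 CPM and the lowest sham liver 3186 CPM, so the groups lay far apart. Day 1 livers 1 and 2 held muscle fibre reads near or above those of the sham livers, and day 1 livers 3 to 5 far fewer. With day 1 livers 3 to 5 alone, 19 members fell and 2 rose, where 33.5% of all genes were called.

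**Figure D2:**
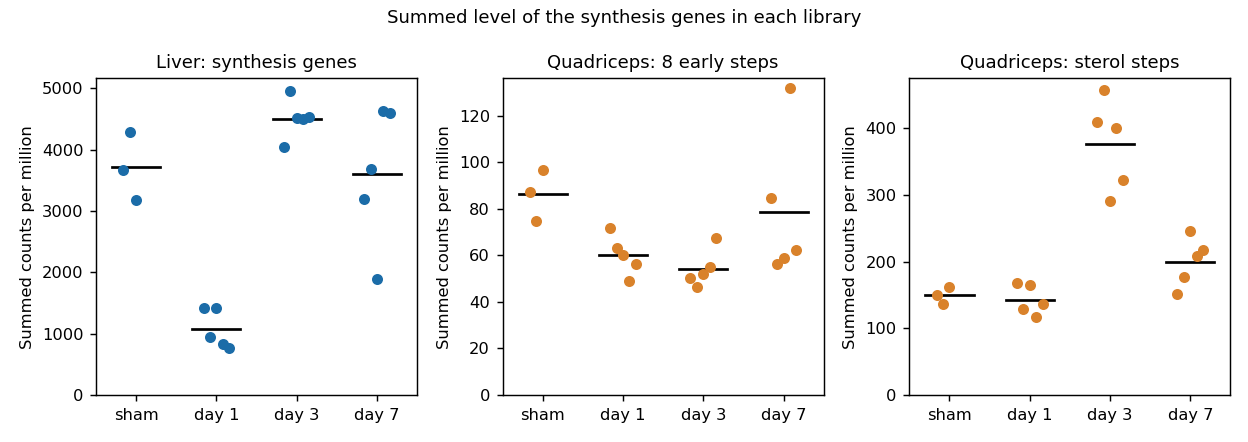
Summed CPM (linear axis from 0) of the 19 synthesis genes in liver and of the 8 early and 11 sterol steps in quadriceps, 1 point per library in the order sham, day 1, day 3 and day 7, with a bar at each mean. Day 1 livers lie between 770.0 and 1424 CPM and sham livers between 3186 and 4297 CPM; in quadriceps the early steps are lowest at day 3, and the sterol sum is highest there.

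Among the early mevalonate steps, 7 of 8 genes fell at day 1, the exception being Ggps1 (-0.04 ± 0.20). Idi1, the isopentenyl diphosphate isomerase, had 36.2, 17.8, 31.2, 11.1 and 16.1 CPM in day 1 livers, against 95.6, 121 and 79.2 CPM in sham livers. Every day 1 liver was below every sham liver, and the log2 fold change was -2.06 ± 0.31 (edgeR adjusted p = 0.000931). Its day 3 livers had 91.3, 126, 166, 145 and 127 CPM and its day 7 livers 97.2, 116, 53.8, 107 and 109.7 CPM, so both later groups overlapped the sham livers. Fdps, which joins isoprene units into farnesyl diphosphate, had 70.6, 39.2, 72.6, 55.1 and 44.4 CPM in day 1 livers, against 204, 228 and 197 CPM in sham livers. The groups did not overlap (-1.78 ± 0.33, edgeR adjusted p = 0.00201). Acat2, the cytosolic acetoacetyl-CoA thiolase that starts the route, had 31.9, 8.33, 15.5, 19.1 and 14.3 CPM in day 1 livers, against 57.2, 77.8 and 67.7 CPM in sham livers, again without overlap (-1.83 ± 0.34, edgeR adjusted p = 0.00227). Hmgcs1 fell by 2.13 on the log2 scale, and the remaining steps from mevalonate to isopentenyl diphosphate, catalysed by Mvk, Pmvk and Mvd, fell by 1.66, 1.46 and 1.89. These 7 calls held without any 1 library.

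Of the 11 sterol steps, which run from the first committed enzyme to cholesterol itself, 8 fell at day 1. Sc5d changed most, with 254, 101.5, 201, 102.9 and 109.8 CPM in day 1 livers, against 1069.7, 1276 and 972 CPM in sham livers. The highest day 1 liver was far below the lowest sham liver (-2.77 ± 0.40, edgeR adjusted p = 0.000648). Fdft1, squalene synthase, had 50.4, 40.9, 48.1, 23.5 and 26.5 CPM in day 1 livers, against 146, 187 and 121 CPM in sham livers. It fell by 1.92 ± 0.29 without overlap (edgeR adjusted p = 0.000948). Msmo1 had 112, 125, 132, 73.6 and 72.4 CPM in day 1 livers, against 352, 374 and 271 CPM in sham livers (-1.60 ± 0.27, edgeR adjusted p = 0.00146). Its groups did not overlap. Sqle, the squalene epoxidase (-1.09), Lss, the lanosterol synthase (-1.48), Cyp51, the lanosterol demethylase (-0.96), Nsdhl, a C4 decarboxylating dehydrogenase (-1.22), and Dhcr7, the last reductase of the Kandutsch-Russell branch (-1.52), fell as well. Tm7sf2, a sterol C14 reductase (-0.44 ± 0.33), Hsd17b7, a C3 ketoreductase (-0.22 ± 0.28), and Ebp, a sterol isomerase (-0.53 ± 0.25), did not pass the test. The call of Sqle was lost without any 1 sham liver or without day 1 liver 2, 4 or 5 (adjusted p up to 0.0818), and that of Lss without sham liver 2 (adjusted p = 0.0502).

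Most of the synthesis genes were correlated over the liver libraries. Over the 18 liver libraries the log2 CPM of any 2 of the 19 synthesis genes had a median Pearson correlation of 0.85, and 155 of 171 pairs were positive. These points share their libraries and their groups, so the correlation describes the pattern and carries no test. Ggps1 and Tm7sf2 stood aside, with correlations of 0.10 and -0.05 to the mean of the other synthesis genes.

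**Figure D3:**
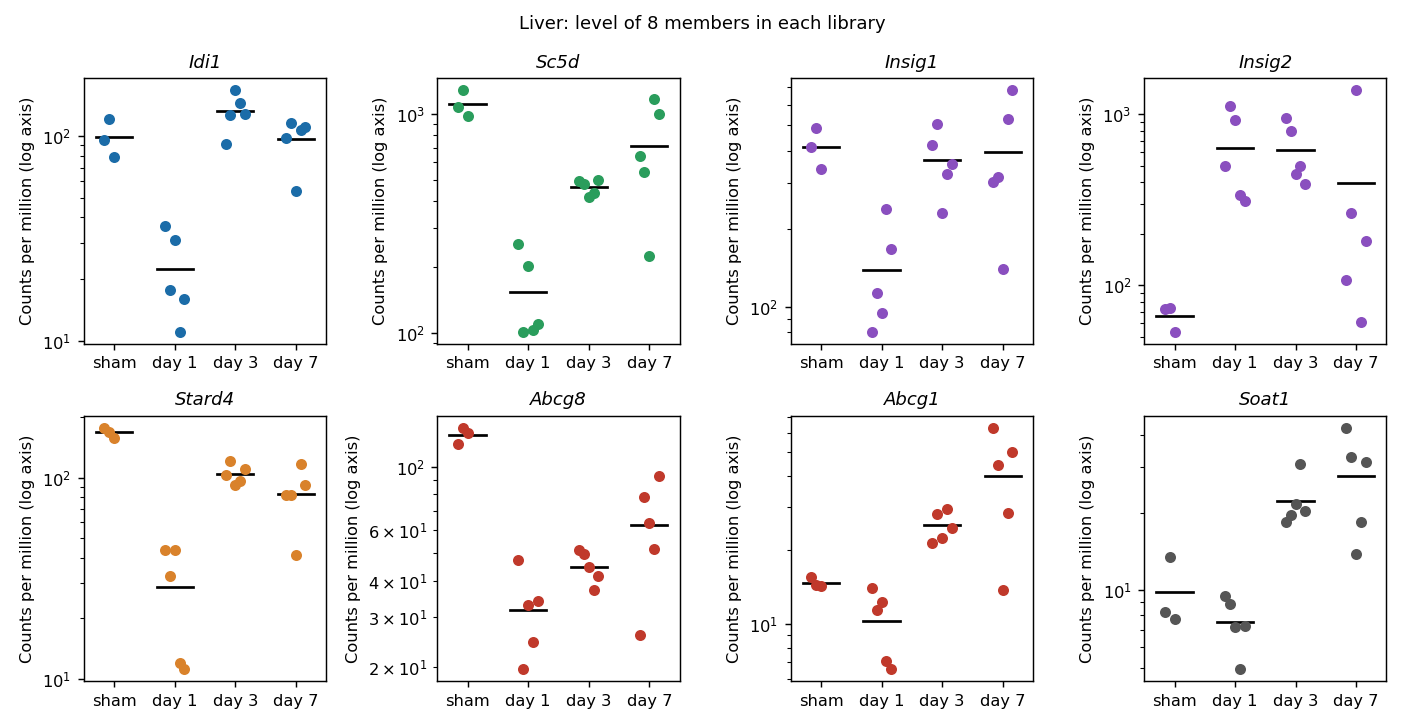
CPM of 8 members (log axes) in each liver library, 1 point per library, with a bar at each mean, in the order sham, day 1, day 3 and day 7. Idi1, Sc5d, Insig1 and Stard4 dip at day 1, Insig2 sits above sham in all day 1 and day 3 livers and in 4 of 5 day 7 livers, Abcg8 stays low, and Abcg1 and Soat1 are highest at day 7.

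Among the sensing genes, the 2 INSIG genes went opposite ways at day 1. Insig2, whose product retains SCAP in the endoplasmic reticulum, had 502, 1117, 924, 337 and 311 CPM in day 1 livers, against 72.2, 73.7 and 53.7 CPM in sham livers. It was the only member to rise at day 1, by 3.34 ± 0.83 on the log2 scale (edgeR adjusted p = 0.00899), and every day 1 liver exceeded every sham liver. Insig1, itself a target of SREBP-2, had 80.4, 113, 94.4, 239 and 168 CPM in day 1 livers, against 411, 487 and 339.7 CPM in sham livers. It fell by 1.40 ± 0.46 (edgeR adjusted p = 0.0314), and the groups did not overlap. Its call was lost without any 1 sham liver or without day 1 liver 1 or 2 (adjusted p up to 0.109). Scap had 132, 109, 133, 138 and 145 CPM in day 1 livers, against 209, 217 and 220.3 CPM in sham livers. This smaller fall of 0.59 ± 0.17 (edgeR adjusted p = 0.0171) was also free of overlap, though not called without sham liver 2 or 3 (adjusted p up to 0.084). Srebf2, which encodes SREBP-2, had a log2 fold change of -0.44 ± 0.16 and missed the threshold (edgeR adjusted p = 0.0533). It passed without day 1 liver 1 or 3 (adjusted p = 0.0207 at the lowest).

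Insig2 stayed high at day 3 with 953, 805, 448, 499 and 391 CPM, all above the sham livers (3.08 ± 0.82, edgeR adjusted p = 0.0102). The day 3 call missed the threshold without sham liver 3 (adjusted p = 0.0529). At day 7 the 5 livers had 108, 263, 1381, 60.8 and 183 CPM and overlapped the sham livers. The day 7 change of 2.33 ± 0.78 (edgeR adjusted p = 0.0463) dropped to 1.02 without day 7 liver 3, and the call was lost without that liver, without day 7 liver 2 or 5, or without any 1 sham liver (adjusted p up to 0.156). Scap, by contrast, remained 0.92 ± 0.17 lower at day 3 and 0.90 ± 0.17 lower at day 7 (edgeR adjusted p = 0.000998 and 0.00284), with 137, 122, 119, 123 and 121 CPM in day 3 livers and 113, 119, 155, 146 and 132 CPM in day 7 livers. Every PHx liver was below every sham liver, and both of these Scap calls held without any 1 library.

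Of the uptake and transport genes, Stard4, a carrier that moves sterol between membranes, fell most at day 1. It had 43.7, 32.4, 43.8, 12.0 and 11.2 CPM in day 1 livers, against 177, 168 and 158 CPM in sham livers (-2.49 ± 0.37, edgeR adjusted p = 0.000711). At day 3 it had 102.998, 121, 91.5, 96.5 and 110.2 CPM, below every sham liver, but was not called (-0.81 ± 0.36, edgeR adjusted p = 0.104). At day 7 it had 82.4, 81.9, 41.1, 117 and 91.8 CPM and was called lower (-1.20 ± 0.36, edgeR adjusted p = 0.0284). That day 7 call was lost without any 1 sham liver or without day 7 liver 1 (adjusted p up to 0.0881). Npc1 had 214, 212, 184, 118 and 185 CPM in day 1 livers, against 308, 332 and 331 CPM in sham livers. It fell by 0.74 ± 0.20 (edgeR adjusted p = 0.0142), a call lost without sham liver 2 or 3 (adjusted p up to 0.0635). Scarb1, the receptor for high density lipoprotein, had 262, 119.8, 156, 138 and 120.1 CPM in day 1 livers, against 145, 143 and 126 CPM in sham livers, and the groups overlapped. Its day 3 livers had 221, 237, 269, 241 and 275 CPM and all exceeded sham (0.73 ± 0.22, edgeR adjusted p = 0.0195), although the call was lost without any 1 sham liver (adjusted p up to 0.0928). Mylip was called at no day in liver, with log2 fold changes between -0.26 and -0.13.

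The 4 exporters did not move as 1 group. Abcg5 and Abcg8 form the transporter that sends sterol into bile, and the genes lie head to head on chromosome 17. By the GENCODE annotation they have 82 exonic bases in common. Abcg8 had 47.3, 19.7, 32.97, 24.5 and 34.0 CPM in day 1 livers, against 119.8, 136 and 131 CPM in sham livers. It fell by 1.92 ± 0.32 at day 1, 1.66 ± 0.32 at day 3 and 1.23 ± 0.32 at day 7 (edgeR adjusted p = 0.00127, 0.00156 and 0.0148). No PHx liver reached the sham range: day 3 livers had 37.2 to 51.0 CPM and day 7 livers 25.9 to 93.1 CPM. The day 7 call was lost without sham liver 3 (adjusted p = 0.0577). Abcg5 had 73.03, 42.7, 33.8, 52.8 and 62.7 CPM in day 1 livers, against 98.2, 113 and 88.8 CPM in sham livers. It fell at day 1 close to the threshold (-0.81 ± 0.29, edgeR adjusted p = 0.0493), was not called without any 1 sham liver or without day 1 liver 2, 3 or 4 (adjusted p up to 0.166), and was not called at day 3 (-0.47 ± 0.30) or day 7 (-0.27 ± 0.30).

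Abcg1, which loads cholesterol onto high density lipoprotein, and Soat1, the esterifying enzyme of most tissues, were higher at the later days. Abcg1 had 63.0, 44.5, 13.7, 28.3 and 50.2 CPM in day 7 livers, against 15.6, 14.4 and 14.3 CPM in sham livers. Day 7 liver 3 was below the sham range and the other four above it (1.22 ± 0.34, edgeR adjusted p = 0.0203). At day 3 Abcg1 had 21.4, 28.1, 22.5, 29.5 and 24.6 CPM, all above sham, without a call (0.64 ± 0.33, edgeR adjusted p = 0.154). Soat1 had 18.4, 19.6, 21.5, 30.8 and 20.3 CPM in day 3 livers and 42.7, 33, 13.8, 18.4 and 31.5 CPM in day 7 livers, against 8.21, 13.4 and 7.73 CPM in sham livers. It rose by 1.05 ± 0.30 at day 3 and 1.29 ± 0.30 at day 7 (edgeR adjusted p = 0.0161 and 0.00986), with no overlap at day 3. The Abcg1 call was lost without any 1 sham liver or without day 7 liver 1 (adjusted p up to 0.0804), and both Soat1 calls without sham liver 1 or 3 (adjusted p up to 0.088). Macrophage markers moved in the same direction: their sum was 226 to 408 CPM in day 3 livers and 188 to 794 CPM in day 7 livers, against 140.7 to 205 CPM in sham livers, and day 7 liver 3 held the lowest sum of its group. The part of macrophages in these changes was not tested. Soat2, the esterifying enzyme of hepatocytes and gut, was called at no day in liver; it had 25.7, 10.5, 23.4, 13.3 and 15.2 CPM in day 1 livers, against 20.03, 25.3 and 19.7 CPM in sham livers. Abca1, which loads cholesterol onto apolipoprotein A-I, had 905 to 1583 CPM in day 3 livers, against 618 to 685 CPM in sham livers, yet its change of 0.70 ± 0.29 missed the threshold (edgeR adjusted p = 0.082).

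By day 3 the summed level of the synthesis genes in every liver was again above that of the lowest sham liver. Against day 1, 20 of the 33 members rose and 0 fell, where 25.2% of all genes were called, 11.6% higher and 13.6% lower. Of the 19 synthesis genes 16 rose, with a median log2 fold change of 1.77 against -0.03 over all genes. The sum of the 19 genes was 4508 ± 319 CPM in day 3 livers, against 1077 ± 319 CPM in day 1 livers (SD, n = 5 each). Hmgcs1, Lss and Mvd had the largest of these differences, at 2.72 ± 0.41, 2.63 ± 0.34 and 2.63 ± 0.35. The other 4 that rose were Srebf2 (0.87 ± 0.14), Stard4 (1.69 ± 0.33), Abcg1 (1.09 ± 0.28) and Soat1 (1.34 ± 0.26). Ggps1, Tm7sf2 and Ebp were the synthesis genes that did not pass the test between these days, at -0.22 ± 0.18, -0.50 ± 0.29 and 0.01 ± 0.22. The 20 calls are the lowest number obtained when each of the 10 libraries was left out in turn. Day 3 against day 1 and day 1 against sham share the day 1 livers.

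Against sham, 9 members were called at day 3, 5 higher and 4 lower, or 27.3% of the list where 28.6% of all genes were called, 15.8% higher and 12.8% lower. The members as a list were thus no more often called than genes at large. Among synthesis genes, Hsd17b7 and Lss rose and Tm7sf2 and Sc5d fell. Hsd17b7 had 319.8 to 607 CPM in day 3 livers, against 134 to 165 CPM in sham livers (1.40 ± 0.29, edgeR adjusted p = 0.00273). Sc5d was still low, at 495, 478, 418, 435 and 498 CPM in day 3 livers, all below the sham livers (-1.38 ± 0.39, edgeR adjusted p = 0.015). Lss rose by 1.15 ± 0.39 and Tm7sf2 fell by 0.94 ± 0.32. The count of 9 was 5 without sham liver 1 or 2 and 4 without sham liver 3, where 17.2%, 19.6% and 17.03% of all genes were called without sham liver 1, 2 and 3. The calls of Lss and Tm7sf2 were lost without any 1 sham liver, and also without day 3 liver 2 or 4 and, for Tm7sf2, day 3 liver 1 (adjusted p up to 0.136), and that of Sc5d without sham liver 2 (adjusted p = 0.0515). Fitted with the day 3 and sham livers only, 16 members were higher and 8 lower, 24 in all, where 52.9% of all genes were called.

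At day 7, 6 members were called against sham, 3 higher and 3 lower, which is 18.2% of the list where 19.2% of all genes were called, 12.4% higher and 6.74% lower. None of the 19 synthesis genes was among them by edgeR's quasi-likelihood test. At an unadjusted p under 0.05 edgeR had 2 of the 19, and 4758 of all 13879 genes. DESeq2 called 1 of the 19, and 3677 of all 13879 genes. The members called by edgeR are Insig2, Abcg1 and Soat1 (higher) and Scap, Stard4 and Abcg8 (lower). The sum of the synthesis genes was 3598 ± 1132 CPM in day 7 livers and 3716 ± 557 CPM in sham livers (SD, n = 5 and 3). Day 7 liver 3 was the lowest of its group for 17 of the 19 synthesis genes, with a sum of 1889 CPM, while the other four lay between 3199.7 and 4624 CPM. The same liver had the highest Insig2 and the lowest sum of the dividing cell markers in its group, 2.74 CPM against 118 to 372 CPM in the other four. Without day 7 liver 4, 10 members were called, where 24.2% of all genes were. Without sham liver 1, 2 or 3 the count was 2, 3 or 1, where 6.57%, 8.93% or 5.59% of all genes were called. Against day 3, the 3 sterol enzymes Cyp51 (-0.87 ± 0.21), Nsdhl (-0.89 ± 0.21) and Hsd17b7 (-1.71 ± 0.25) were lower at day 7, where 1.26% of all genes were called, 0.612% higher and 0.648% lower. Only Hsd17b7 kept its call in each refit without 1 library; the calls of Cyp51 and Nsdhl were lost without any 1 day 3 liver or without day 7 liver 1, 2 or 4 (adjusted p up to 0.163). Without day 7 liver 3 the count was 5, where 4.51% of all genes were called.

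In quadriceps, most calls of members against sham were at day 3, as were most calls over all genes (720, 6454 and 8 at days 1, 3 and 7). At day 1 against sham, 1 of 31 members was called, where 5.29% of all 13601 genes were, 3.04% higher and 2.26% lower. This was Acat2, with 0.904, 1.16, 1.71, 1.36 and 2.24 CPM in day 1 quadriceps, against 5.79, 6.29 and 16.3 CPM in sham quadriceps. Every day 1 quadriceps was below every sham quadriceps (-2.47 ± 0.64, edgeR adjusted p = 0.0404). The call was lost without any 1 sham quadriceps or without day 1 quadriceps 2, 3, 4 or 5 (adjusted p up to 0.218), and without sham quadriceps 3 the change was -1.79. Sham quadriceps 3 also held the most adipocyte RNA of all: the 6 adipocyte markers summed to 134 to 578 CPM in day 1 quadriceps, against 677, 967 and 2896 CPM in sham quadriceps. Without day 1 quadriceps 1 the count was 3, where 9.51% of all genes were called. With the adipocyte marker level as a covariate, chosen after seeing the data, edgeR called 0 members and 0 of the 13601 genes, with 4 members and 1620 genes at an unadjusted p under 0.05. No day 1 quadriceps reached the adipocyte sum of any sham quadriceps, so this fit separates marker level from group poorly. DESeq2 without that covariate called 4 members and 13.4% of all genes.

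At day 3, 16 of 31 members were called in quadriceps, 12 lower and 4 higher, which is 51.6% where 47.5% of all genes were called, 22.6% lower and 24.8% higher. The synthesis genes made up 10 of the 12 lower members, with a median over all 19 of -0.91 against -0.02 over all genes. Idi1 had 0.491, 0.540, 0.880, 0.847 and 1.59 CPM in day 3 quadriceps, against 2.26, 2.86 and 4.40 CPM in sham quadriceps. The groups did not overlap (-1.85 ± 0.37, edgeR adjusted p = 0.00102). Acat2 had 1.04, 0.979, 2.30, 1.08 and 2.26 CPM in day 3 quadriceps (-2.61 ± 0.64, edgeR adjusted p = 0.00363), all below the sham values given above, and without sham quadriceps 3 its change was -1.92. Fdps had 1.23, 2.19, 2.30, 2.87 and 4.52 CPM in day 3 quadriceps, against 9.82, 8.95 and 8.80 CPM in sham quadriceps, and Sc5d had 16.6 to 30.2 CPM against 40.8 to 51.1 CPM, both without overlap. Fdps (-1.77 ± 0.35), Dhcr7 (-2.33 ± 0.51), Nsdhl (-1.31), Tm7sf2 (-1.14), Mvk (-1.09), Cyp51 (-0.99), Sc5d (-0.94) and Hmgcs1 (-0.87) also fell. Pmvk, Mvd, Sqle, Lss, Msmo1, Hsd17b7 and Ebp were not called, with values between -0.91 and 0.03. Outside synthesis, Insig2 and Abca1 fell. Insig2 had 27.6, 18.2, 22.9, 24.0 and 33.5 CPM in day 3 quadriceps, against 37.5, 39.0 and 32.8 CPM in sham quadriceps, so that day 3 quadriceps 5 exceeded 1 sham library in CPM. Its fitted change was -0.49 ± 0.14 (edgeR adjusted p = 0.00783). Abca1 had 59.1 to 98.8 CPM in day 3 quadriceps, against 125 to 249 CPM in sham quadriceps (-0.98 ± 0.35, edgeR adjusted p = 0.0289).

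The 4 higher members were Fdft1, Npc1, Ggps1 and Mylip. Fdft1 had 360.4, 417, 243, 348 and 256 CPM in day 3 quadriceps, against 60.7, 46.9 and 52.8 CPM in sham quadriceps. It was the only synthesis gene besides Ggps1 to rise there, by 2.69 ± 0.42 (edgeR adjusted p = 0.000372), while its groups lay far apart. The sum of the 11 sterol steps was 376 ± 68 CPM in day 3 quadriceps and 149 ± 13.1 CPM in sham quadriceps (SD, n = 5 and 3). Fdft1 alone made up 325 ± 73.8 CPM of it in day 3 quadriceps and 53.5 ± 6.89 CPM in sham quadriceps. Npc1 had 2288, 1764, 975, 1529 and 613 CPM in day 3 quadriceps, against 191, 161 and 169 CPM in sham quadriceps (3.14 ± 0.76, edgeR adjusted p = 0.00343). It was already above sham in all day 1 quadriceps, at 787, 736, 837, 492 and 262 CPM, without a call (2.02 ± 0.71, edgeR adjusted p = 0.0903). Ggps1 (0.54 ± 0.21) and Mylip (0.53 ± 0.19) rose less (edgeR adjusted p = 0.0448 and 0.0324). By the GENCODE annotation, which may not be the one used for counting, the exons of Fdft1 share 774 bases with Ctsb on the opposite strand. Whether reads were counted by strand is not stated. Ctsb itself changed by 0.06 ± 0.18 in day 3 quadriceps (edgeR adjusted p = 0.781). Npc1 and Ggps1 likewise share 511 and 257 exonic bases with the genes Rmc1 and Arid4b, and Arid4b rose by 0.98 ± 0.24, so the value of Ggps1 is uncertain. Rmc1 has no entry under that symbol among the counted genes, so its part in the Npc1 reads is not known. Of the lower members, Cyp51 shares 166 exonic bases with Akap9 (opposite strand) and Tm7sf2 532 with Vps51 (same strand). Fdps, Hmgcs1 and Idi1 share bases with genes that have no entry. Sham quadriceps had 169 and 9.74 CPM of Akap9 and Vps51, against 5.18 and 1.31 CPM of Cyp51 and Tm7sf2. In day 3 quadriceps Akap9 rose by 0.62 ± 0.25 (edgeR adjusted p = 0.0491) and Vps51 changed by 0.39 ± 0.21 (edgeR adjusted p = 0.137). The part of these overlaps was not tested. The 8 macrophage markers summed to 98.4 to 218 CPM in day 3 quadriceps, against 56.8 to 78.05 CPM in sham quadriceps. Of the 6 that were tested Cd68 (4.001 ± 0.59) and Gpnmb (3.15 ± 0.54) rose, and the others, Adgre1 (-0.65) and Csf1r (-0.56) among them, were not called. The part of macrophages in the changes of these members was not tested.

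Several of these day 3 calls in muscle rest on few libraries. Without sham quadriceps 3, 9 members were called, 7 lower and 2 higher, where 34.8% of all genes were called. That library decided the calls of Mvk, Cyp51, Tm7sf2, Nsdhl, Ggps1, Mylip and Abca1 (highest adjusted p on leaving out 1 library 0.0727, 0.103, 0.0886, 0.146, 0.138, 0.102 and 0.224). Among these, Cyp51 was also lost without sham quadriceps 2, Nsdhl without day 3 quadriceps 2, Tm7sf2 without day 3 quadriceps 4, and Cyp51 and Abca1 without either of those. Ggps1 and Mylip were lost without any 1 sham quadriceps or without day 3 quadriceps 1 or 2, and Ggps1 also without day 3 quadriceps 4. Insig2 was lost without sham quadriceps 2 (adjusted p = 0.0546). Adipocyte markers summed to 175 to 505 CPM in day 3 quadriceps, against 677 to 2896 CPM in sham quadriceps, and muscle fibre markers to 114523 to 204886 CPM against 245310.0 to 304358 CPM. With the adipocyte level as a covariate, 3 members were called, Fdft1 higher (2.14) and Idi1 and Fdps lower (-1.38 each), where 21.7% of all genes were. The same covariate gave Acat2 a change of -0.72, Dhcr7 -1.77 and Npc1 2.31, none of them called (edgeR adjusted p = 0.275, 0.0532 and 0.0553). Every day 3 quadriceps had a lower adipocyte sum than every sham quadriceps, so this fit too separates marker level from group poorly.

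**Figure D4:**
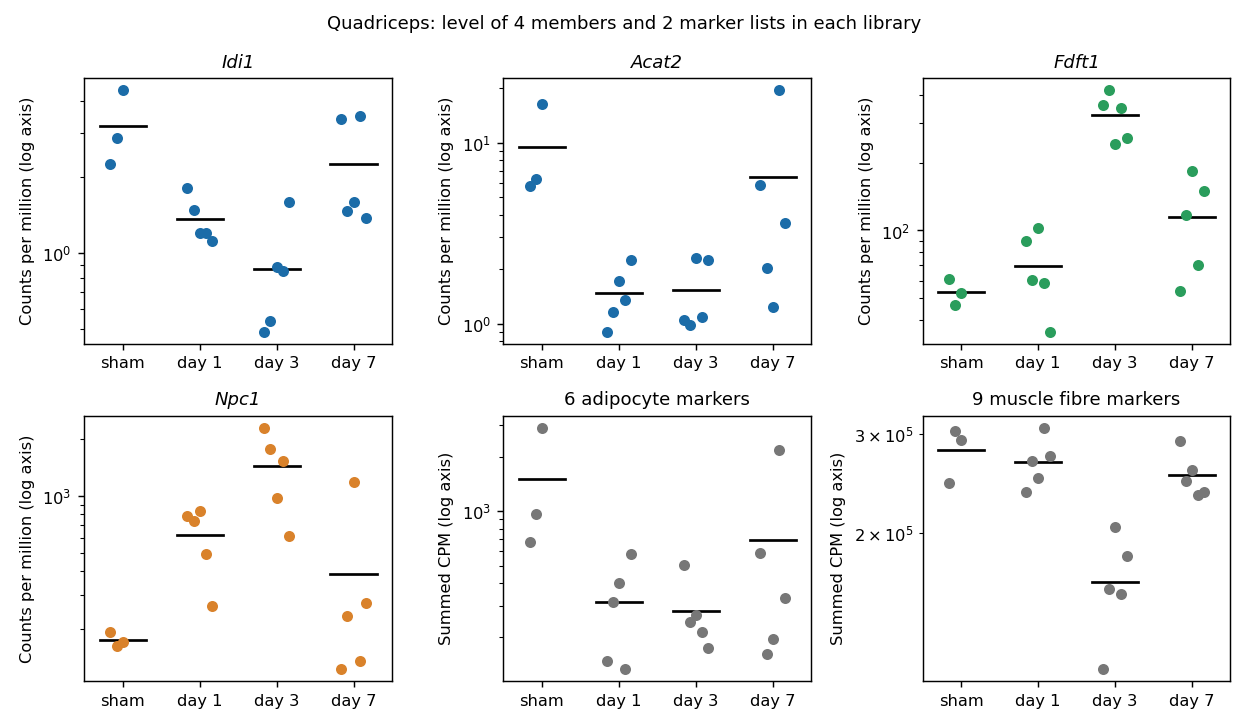
CPM of Idi1, Acat2, Fdft1 and Npc1, and summed CPM of 6 adipocyte and 9 muscle fibre markers (log axes), in each quadriceps library, 1 point per library, with a bar at each mean, in the order sham, day 1, day 3 and day 7. Idi1 and Acat2 are below sham at days 1 and 3, Fdft1 and Npc1 are above it at day 3, adipocyte markers are highest in sham quadriceps 3 and day 7 quadriceps 4, and muscle fibre markers are lowest at day 3.

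At day 7 no member differed from sham in quadriceps by edgeR's quasi-likelihood test, where 8 of 13601 genes, or 0.0588%, were called, 0.0441% higher and 0.0147% lower. At an unadjusted p under 0.05 edgeR had 3 members and 1604 of the 13601 genes. DESeq2 called 1 member and 2.19% of all genes. Against day 3, 10 of 31 members were higher and 2 lower at day 7, 38.7% where 36.5% of all genes were called, 17.0% higher and 19.5% lower. The higher ones were Acat2, Mvk, Idi1, Fdps, Cyp51, Nsdhl, Sc5d, Dhcr7, Srebf2 and Abca1, and the lower ones Fdft1 (-1.62 ± 0.33) and Npc1 (-1.94 ± 0.59). Fdft1 had 54.0, 118, 183, 70.2 and 149.6 CPM in day 7 quadriceps and Npc1 had 123, 233, 1180.3, 135 and 272 CPM. Day 7 quadriceps 3 thus stood apart for Npc1, and without it the change from day 3 was -3.12. Acat2 had 5.84, 2.03, 1.24, 19.5 and 3.58 CPM at day 7. Its highest library, day 7 quadriceps 4, was the highest of its group for 14 of the 19 synthesis genes and held 2196 CPM of adipocyte markers, against 162 to 583 CPM in the other four. Without it the change of Acat2 from day 3 was 0.95 and no longer called (edgeR adjusted p = 0.125), and the calls of Sc5d, Nsdhl and Srebf2 were lost too (adjusted p up to 0.0575, 0.224 and 0.091). The calls of Dhcr7, Nsdhl and Srebf2 were lost without day 7 quadriceps 1 (adjusted p up to 0.0543 for Dhcr7). Nsdhl was also lost without day 3 quadriceps 1, 2 or 4, and Srebf2 without day 3 quadriceps 2, 3 or 4 or day 7 quadriceps 5.

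Between days 1 and 3 in quadriceps, 2 members rose and 8 fell, 32.3% where 26.2% of all genes were called, 13.6% higher and 12.6% lower. Fdft1 (2.13 ± 0.34) and Abcg1 (0.73 ± 0.25) rose. Abcg1 had 4.72, 5.43, 7.43, 4.71 and 10.6 CPM in day 3 quadriceps, against 5.16, 2.84, 5.13, 2.61 and 2.29 CPM at day 1, and the groups overlapped. Fdps (-1.54 ± 0.32) and Hsd17b7 (-1.62 ± 0.36) had the most negative values among the 8 lower members, the others being Pmvk, Mvd, Tm7sf2, Sc5d, Insig2 and Abca1. Leaving out any 1 of day 1 quadriceps 2, 4 and 5 or day 3 quadriceps 1 to 4 brought the count of 10 to 4 or 5, where 19.1% to 23.6% of all genes were called. Fdft1, Fdps and Hsd17b7 were called in all 10 of these refits, and the other 7 members in 2 to 6 of them (adjusted p up to 0.236). Each of the 10 libraries was needed for the call of at least 1 of those 7. Mvd had 16.1 CPM in day 1 quadriceps 2 and 1.63 to 4.02 CPM in the other four, and without that library its change was -0.58. Over the 18 quadriceps libraries, any 2 synthesis genes had a median correlation of 0.52 in log2 CPM, and 130 of 171 pairs were positive. The correlation to the mean of the synthesis genes was -0.70 for Fdft1 and -0.83 for Npc1, as a description of libraries that share their groups.

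The difference between the responses of the 2 tissues was tested directly, as the log2 fold change over sham in liver minus that in quadriceps, over the 12780 genes tested in both. At day 1, 9 of 31 members differed, 1 positive and 8 negative, 29.0% where 11.2% of all genes differed, 6.56% positive and 4.62% negative. Insig2 was the positive one (3.49 ± 0.78, edgeR adjusted p = 0.00466). The negative ones were Mvd (-3.00 ± 0.71), Npc1 (-2.75 ± 0.73), Fdft1 (-2.47 ± 0.50), Sc5d (-2.32 ± 0.48), Stard4 (-2.07 ± 0.49), Pmvk (-1.82), Hmgcs1 (-1.66) and Fdps (-1.55). Without day 1 quadriceps 2, the library with 16.1 CPM, the value of Mvd was -2.09. Hmgcs1 was called in 3 of 16 refits without 1 library, Fdps in 5 and Pmvk in 12 (adjusted p up to 0.113, 0.0915 and 0.0719). Hmgcs1 and Fdps depended on each of the 6 sham libraries, and Pmvk on sham liver 2, sham quadriceps 1 and 2 and day 1 quadriceps 5. Hmgcs1 and Fdps were also lost without day 1 liver 2, 4 or 5 or day 1 quadriceps 4 or 5, and Hmgcs1 without day 1 quadriceps 2 or 3.

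**Figure D5:**
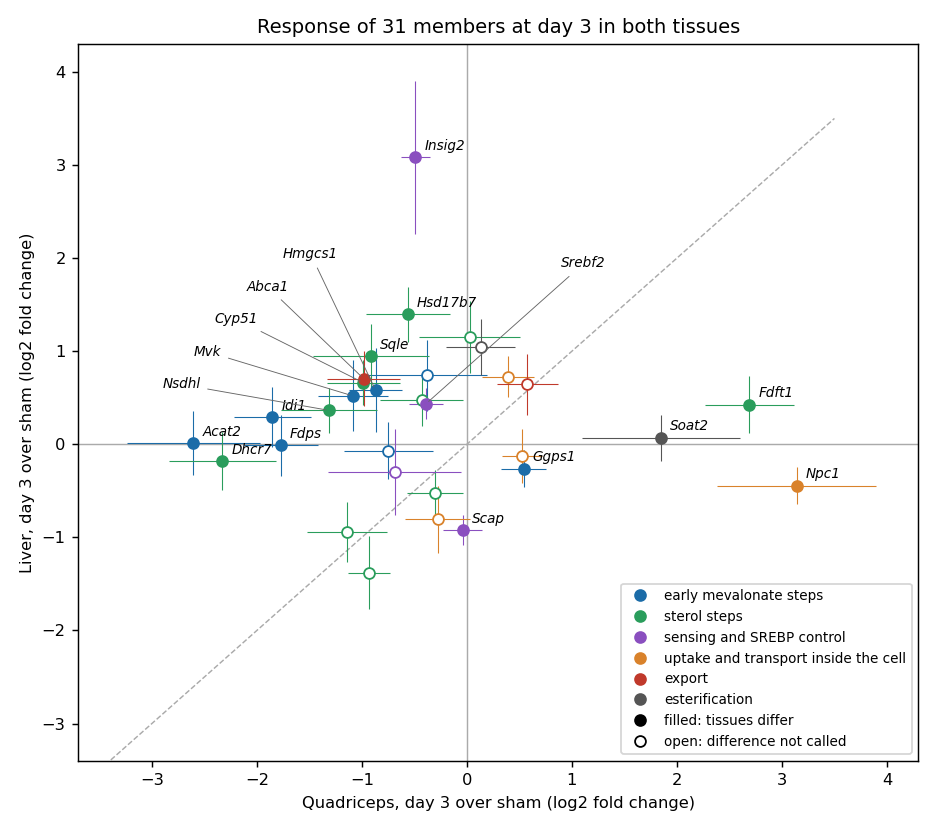
Log2 fold change over sham at day 3 in quadriceps (x axis) and liver (y axis) for the 31 members tested in both tissues, with bars of 1 SE and a dashed line of equal change. Filled, named points are the 18 members whose responses differed between tissues (edgeR adjusted p under 0.05); 13 lie above the dashed line and 5, among them Fdft1 and Npc1, below it.

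At day 3, 18 of 31 members differed, 13 positive and 5 negative, 58.1% where 41.5% of all genes did, 19.9% positive and 21.6% negative. Insig2 was again most positive (3.56 ± 0.78, edgeR adjusted p = 0.000651). Of the synthesis genes, 10 were positive, namely Acat2, Hmgcs1, Mvk, Idi1, Fdps, Sqle, Cyp51, Nsdhl, Hsd17b7 and Dhcr7, between 1.44 and 2.61. Srebf2 (0.82 ± 0.22) and Abca1 (1.68 ± 0.49) were positive too. Npc1 was the most negative (-3.59 ± 0.74, edgeR adjusted p = 0.000387), followed by Fdft1 (-2.27 ± 0.50), Soat2 (-1.78 ± 0.69), Scap (-0.89) and Ggps1 (-0.81). Soat2 is barely expressed in muscle, with 0.491, 0.371, 0.342, 0.377 and 0.565 CPM in day 3 quadriceps, against 0.196, 0.121 and 0.0444 CPM in sham quadriceps, and was called in 9 of 16 refits (adjusted p up to 0.133), depending on sham liver 2, day 3 liver 5, sham quadriceps 2 and 3 and day 3 quadriceps 1, 2 and 5. Without sham quadriceps 3 the value of Acat2 was 1.93 and Hmgcs1, Sqle, Nsdhl and Ggps1 were not called (adjusted p up to 0.0874). Hmgcs1 was also lost without sham liver 1 or 3, and Ggps1 without sham liver 3 or sham quadriceps 2.

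At day 7, 2 members differed between the tissues, Insig2 (2.53 ± 0.76) and Scap (-0.95 ± 0.25), 6.45% where 7.08% of all genes did, 4.44% positive and 2.64% negative. Without day 7 liver 3 the value of Insig2 was 1.26 and not called, and it was also lost without any 1 sham library of either tissue or day 7 quadriceps 2, 3 or 5 (adjusted p up to 0.11). Scap was lost without sham liver 3 or sham quadriceps 2 (adjusted p up to 0.0653). Without sham liver 3, or without sham quadriceps 2, the count was 0, and without any 1 other sham library, day 7 liver 3 or day 7 quadriceps 2, 3 or 5 it was 1. Over these refits 2.88% to 9.604% of all genes were called. The authors' deposited table, by its own FDR under 0.05, lists 1 member higher and 21 lower in liver at day 1, 4 and 6 at day 3 and 3 and 5 at day 7, where it calls 28.2%, 30.8% and 22.7% of all its genes. For quadriceps the authors' deposited table lists 2 higher and 3 lower at day 1, 4 and 11 at day 3 and 0 at day 7, where it calls 14.4%, 46.5% and 2.04% of all its genes.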

How the data were processed

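Total RNA of 18 livers and 18 quadriceps was sequenced. Per the submitters' processing notes, FastQC 0.11.5, STAR 2.7.10a, Subread 2.0.3 featureCounts, edgeR 3.40.2 and mm10 were used, and the authors deposited raw counts per gene with gene lengths, log2 fold changes, p-values and FDR values. Whether counting used strand is not given in the sources used here. Another 36 sample columns in the table were left aside.

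From the counts, edgeR 4.0.16 in R 4.3.3 fitted the 4 groups of each tissue (TMM, filterByExpr, robust quasi-likelihood), giving 13879 tested genes in liver and 13601 in quadriceps; SE is the absolute log2 fold change over the square root of F. The tissue difference was an interaction over 12780 genes. The procedure was also run on simulated data, and the outcome is not given here. DESeq2 1.42.0, other scaling, no filter, only the groups compared, a replicate block and leaving out each library were alternatives. Day 1 livers 3 to 5 alone and the adipocyte covariate were added after seeing the data. The members, marker lists and related genes were chosen with earlier results of these data known. For each role, up to 3 members with the smallest p against sham in liver and 1 in quadriceps were chosen for values by library. Such values are given for some of their groups, and the rest by range or fold change or not at all. Nothing beyond the labels says how the mice were assigned, so p-values only set group differences against the spread between these libraries.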

Additional observations from a re-analysis of the deposited data

Results flagged for a closer look

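In 18 of 192 groups of 5 libraries, 1 library lay far from the other four in CPM, by its gap as a share of the range. With independent, normal values the cut used would flag about 1 in 20, or 9.6 groups. The groups share libraries and correlated genes, and CPM was not transformed, so 9.6 is only a rough guide. Day 7 quadriceps 4 was high for Acat2 (19.5), Lss (9.92) and Insig1 (153), and it also held the most adipocyte marker RNA of its group. Day 3 quadriceps 5 was high for Mvk (2.88) and Dhcr7 (4.67), and day 1 quadriceps 5 for Pmvk (4.84) and Lss (17.0). Day 1 quadriceps 2 was high for Mvd (16.1) and day 7 quadriceps 3 for Npc1 (1180.3). Among livers, day 7 liver 3 was high for Insig2 (1381), day 7 liver 5 for Pmvk (23.4) and day 7 liver 1 for Mylip (21.97). Day 3 liver 1 was low for Sqle (209) and high for Scap (137), day 3 liver 2 was high for Cyp51 (459) and day 3 liver 4 for Soat1 (30.8). Day 1 liver 2 was low for Cyp51 (72.98) and day 1 liver 1 was high for Scarb1 (262).

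The response over sham, as a log2 fold change in liver minus that in quadriceps, differed between the tissues in 29 member tests. At day 1 these were Hmgcs1 (-1.66), Pmvk (-1.82), Mvd (-3.00), Fdps (-1.55), Fdft1 (-2.47), Sc5d (-2.32), Npc1 (-2.75), Stard4 (-2.07) and Insig2 (3.49). At day 3 the early and sterol steps Acat2 (2.61), Hmgcs1 (1.44), Mvk (1.59), Idi1 (2.13), Fdps (1.74), Sqle (1.84), Cyp51 (1.64), Nsdhl (1.66), Hsd17b7 (1.95) and Dhcr7 (2.14) were positive, as were Srebf2 (0.82), Insig2 (3.56) and Abca1 (1.68). Ggps1 (-0.81), Fdft1 (-2.27), Scap (-0.89), Npc1 (-3.59) and Soat2 (-1.78) were negative. At day 7 Insig2 (2.53) and Scap (-0.95) differed.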

How the results depend on the processing

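In the member counts, scaling by DESeq2 size factors and TMM over all libraries moved no comparison past 1.5-fold, and no called member changed direction under any alternative run. Testing with no filter on low counts left 1 member called between day 7 and day 3 in liver, against 3, where 1.06% of all genes were called. Fitting only the groups compared gave 24 members for liver at day 3 against sham, 1 for liver day 7 against day 3 and 7 for quadriceps at day 1 against sham, where 52.9%, 1.17% and 17.2% of all genes were called. DESeq2 called 4 members in quadriceps at day 1, 1 at day 7, and 4 for the tissue difference at day 7, where it called 13.4%, 2.19% and 11.6% of all genes. With the adipocyte covariate, 0 members were called in quadriceps at day 1 and 3 at day 3, where 0% and 21.7% of all genes were called. That covariate was higher in every sham quadriceps than in any day 1 or day 3 quadriceps, so it is largely confounded with these comparisons. The cause of these shifts was not tested.

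On leaving out 1 library at a time, the members called ran from 16 to 23 for liver at day 1, 4 to 10 at day 3, 1 to 10 at day 7, 20 to 22 between days 3 and 1, and 1 to 5 between days 7 and 3. In quadriceps they ran from 0 to 3 at day 1, 9 to 17 at day 3, 0 to 0 at day 7, 4 to 11 between days 3 and 1, and 8 to 14 between days 7 and 3. The tissue difference ran from 6 to 11, 13 to 18 and 0 to 3 at days 1, 3 and 7. The share of all genes called moved as well, for example between 12.8% and 36.5% for liver at day 1, 5.59% and 24.2% for liver at day 7 and 34.8% and 51.0% for quadriceps at day 3. Of the single member values, 4040 of these refits kept their side of the threshold, 216 lost a call and 48 gained one.

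The labels number the libraries without saying that a number marks 1 mouse. Between liver and quadriceps of a group the median correlation of deviations was 0.10 for the same number, with 10 of 18 pairs over 0.1. For other numbers it was -0.02, with 11 of 66 over 0.1. The main fit of the tissue difference did not pair libraries. For same-numbered libraries of different groups the median was 0.02 in liver and -0.02 in quadriceps, which does not bear on pairing of tissues. Within tissues, blocking on replicate number gave 1 member for liver day 7 against day 3, and 4 for quadriceps day 3 against day 1. In these 0.591% and 22.7% of all genes were called. For the tissue difference the block instead took same-numbered libraries of a group as 1 mouse. All other counts under either block stayed within 1.5-fold of the main fit. With 3 sham libraries per tissue, calls close to the threshold rest on each of them, and genes such as Soat2 in quadriceps, under 1 CPM, have few reads behind them.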

Other observations

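Outside the 33 members, 32 of 33 listed genes of neighbouring steps were in the table (SREBP processing, isoprenoid branches, sterol transport, esters and oxysterols). At day 1 in liver 4 were higher and 3 lower than sham, at day 3 3 and 3, and at day 7 1 and 4, or 21.9%, 18.8% and 15.6% of them, below the shares of all genes called. In quadriceps 2 were higher and 1 lower at day 1, 8 and 5 at day 3, and 0 at day 7, or 9.38%, 40.6% and 0% of them, where 5.29%, 47.5% and 0.0588% of all genes were called. These genes were not refitted without single libraries.

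A few of these genes are described here, chosen after their values were seen. Ch25h, cholesterol 25-hydroxylase, had 16, 104, 8, 57 and 204 reads in day 1 livers, against 2, 0 and 0 reads in sham livers (edgeR adjusted p = 0.00603), and every day 1 liver was above every sham liver. Cyp7b1, which hydroxylates oxysterols on the way to bile acids, had 41.1, 23.9, 31.1, 29.3 and 34.8 CPM in day 3 livers, against 439, 216 and 379 CPM in sham livers. It fell by 3.56 ± 0.46 on the log2 scale (edgeR adjusted p = 0.000121) and was not called at day 1 (0.50 ± 0.46). Cyp27a1, the sterol 27-hydroxylase, fell by 2.72 ± 0.30 at day 3 in liver (edgeR adjusted p = 3.96e-05). In day 3 quadriceps it rose by 1.43 ± 0.36 (edgeR adjusted p = 0.00466). Srebf1, which encodes SREBP-1, had 19.1, 21.5, 13.8, 19.7 and 21.3 CPM in day 1 quadriceps, against 73.1, 72.9 and 116 CPM in sham quadriceps (-1.98 ± 0.56, edgeR adjusted p = 0.049). Adipocyte markers summed to 134 to 578 CPM in day 1 quadriceps, against 677 to 2896 CPM in sham quadriceps. With their level as a covariate edgeR called 0 of the 13601 genes at day 1, Srebf1 included, with 1620 at an unadjusted p under 0.05. The marker sums of these groups did not overlap, so that fit separates marker level from group poorly. The liver values of Srebf1 were 44.1, 87.2, 18.4, 114 and 56.4 CPM at day 1, against 202, 228 and 335 CPM in sham livers (-1.87 ± 0.58, edgeR adjusted p = 0.0247). Pdss1, a subunit of the enzyme that makes the side chain of coenzyme Q, rose in liver at all 3 days, by 1.76, 1.81 and 1.16, and fell by 0.98 in day 3 quadriceps.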
